A study of Saccharomyces cerevisiae with 8 samples.

Results

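Box C/D small nucleolar RNAs (snoRNAs) of *Saccharomyces cerevisiae* that are each made from a gene of their own, outside introns and outside polycistronic clusters, were examined in cells with and without *RRP6*. There were 22 of these: SNR4, SNR13, SNR39B, SNR40, SNR45, SNR47, SNR48, SNR50, SNR52, SNR56, SNR58, SNR60, SNR62, SNR63, SNR64, SNR65, SNR66, SNR68, SNR69, SNR71, SNR79 and SNR87. They were chosen by name and not by any measured value, from the 80 spliceosomal and nucleolar small RNAs (sn/snoRNAs) of a deposited table of 10054 transcripts. Each of the 22 had a row for the mature RNA and a row for an extended transcript (ET), the stretch downstream of the mature 3′ end, so 44 rows were followed. No row was left out for low counts, and all 44 entered the fit.

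A box C/D snoRNA carries a box C near its 5′ end and a box D near its 3′ end, is bound by Nop1, Nop56, Nop58 and Snu13, and base-pairs with rRNA to place a modification. Most of them guide the 2′-O-methylation of ribose by Nop1, while SNR4 and SNR45 guide the acetylation of cytidines in 18S rRNA. Transcription of these genes by RNA polymerase II ends through the Nrd1-Nab3-Sen1 (NNS) pathway, and the 3′ end is then trimmed by the nuclear exosome, of which Rrp6 is the nuclear 3′-5′ exonuclease. SNR52 differs from the others in being transcribed by RNA polymerase III. By known target, 14 members (SNR13, SNR39B, SNR48, SNR50, SNR58, SNR60, SNR62, SNR63, SNR64, SNR65, SNR66, SNR68, SNR69 and SNR71) guide methylation of 25S rRNA, 3 (SNR56, SNR79 and SNR87) of 18S rRNA and 3 (SNR40, SNR47 and SNR52) of both.

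Total RNA came from 4 preparations of a wild-type strain (WT) and 4 of a strain with *RRP6* deleted (*rrp6Δ*, from the knockout collection), isogenic to BY4741 and grown in YPD medium to an optical density of 0.8. No other change was stated for either strain, and *rrp6Δ* is a deletion present throughout growth, in a single strain. The RNA was depleted of rRNA and sequenced as strand-specific single reads of 75 bases. Total counts lay between 6904004 and 11298227 in WT and between 8761140 and 12666126 in *rrp6Δ*, and the 22 mature rows took 2.61% to 4.23% of them in WT and 2.32% to 3.36% in *rrp6Δ*. *RRP6* itself took 1787, 1030, 754 and 660 counts across WT and 60, 31, 42 and 16 across *rrp6Δ*, so the libraries matched their labels. The labels number the preparations of each strain and name no batch, and the study calls them biological replicates. Changed transcripts are those with a p-value below 0.05 in edgeR's quasi-likelihood test, an FDR (false discovery rate, Benjamini-Hochberg, 10054 transcripts) no higher than 0.1 and a fold change of 1.5 or more. Levels are normalized counts, which are CPM after TMM scaling of the libraries. Over all transcripts 25.6% were called higher in *rrp6Δ* and 9.61% lower, and the median log2 fold change was -0.14. With library totals alone that median was 0.23 and 96.1% of the called transcripts were higher, against 72.7% in the fit reported here. These values were 0.17 and 94.0% with TMM computed on ORF-Ts (transcripts with an open reading frame), 0.25 and 97.7% with TMM computed on mature sn/snoRNAs, and 0.003 and 85.4% when NUTs (Nrd1-unterminated transcripts), ETs and sn/snoRNAs were kept out of totals and TMM.

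The sequences of 5 members are printed for reference: SNR56, SNR65, SNR64 and SNR66, whose mature rows fell in every setting tried, and SNR45, whose ET rose most. Whether their changes are linked to sequence was not tested. They are the RefSeq snoRNA genes of genome build R64 (sacCer3), read 5′ to 3′ on the snoRNA's own strand, with box C (NTGATGN) and box D (CTGA) in capitals. Box D was found within the last 25 bases of all 22 members and box C within the first 25 bases of 18. SNR4, SNR13, SNR40 and SNR45 held no match to these letters of box C in that window.
SNR56 (chrII:88190-88277, plus strand, 88 bases): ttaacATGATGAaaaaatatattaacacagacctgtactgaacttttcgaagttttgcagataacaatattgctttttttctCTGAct
SNR65 (chrIII:177183-177282, plus strand, 100 bases): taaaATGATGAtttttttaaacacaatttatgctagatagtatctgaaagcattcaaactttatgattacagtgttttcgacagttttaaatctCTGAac
SNR64 (chrXI:38811-38911, plus strand, 101 bases): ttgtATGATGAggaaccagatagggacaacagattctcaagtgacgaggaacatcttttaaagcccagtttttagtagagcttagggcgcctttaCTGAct
SNR66 (chrXIV:586090-586175, plus strand, 86 bases): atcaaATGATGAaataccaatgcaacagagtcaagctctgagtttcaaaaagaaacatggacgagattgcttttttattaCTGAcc
SNR45 (chrXVI:821732-821903, plus strand, 172 bases): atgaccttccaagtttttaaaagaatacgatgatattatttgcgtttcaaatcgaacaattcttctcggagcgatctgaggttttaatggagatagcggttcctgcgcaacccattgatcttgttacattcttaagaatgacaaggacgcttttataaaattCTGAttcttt

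The first 100 bases downstream of the RefSeq 3′ end are shown for 3 members, because NNS termination of snoRNA genes takes place downstream of the mature 3′ end. Their ETs were called higher but are not the 3 largest changes. The ETs of SNR62, SNR63 and SNR71 rose more than that of SNR65 (log2 fold changes 3.09, 2.90 and 2.79 against 2.54). Capitals mark GTAA and GTAG, the core letters of the RNA element bound by Nrd1, and TCTT, that of Nab3. In the same stretch SNR62 and SNR63 held all of these letters, while SNR71 held TCTT but neither GTAA nor GTAG. Whether the rise of an ET is linked to these letters was not tested.
SNR45 downstream (chrXVI:821904-822003, plus strand): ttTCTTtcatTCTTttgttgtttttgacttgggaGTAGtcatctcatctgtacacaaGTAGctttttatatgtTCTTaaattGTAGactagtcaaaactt
SNR13 downstream (chrIV:1403043-1403142, plus strand): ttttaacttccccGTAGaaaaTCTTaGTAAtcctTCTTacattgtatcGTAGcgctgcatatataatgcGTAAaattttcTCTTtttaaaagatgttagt
SNR65 downstream (chrIII:177283-177382, plus strand): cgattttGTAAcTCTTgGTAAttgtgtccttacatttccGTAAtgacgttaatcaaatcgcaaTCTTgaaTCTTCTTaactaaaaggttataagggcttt

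In the 150 bases downstream of the 3′ end, read on the snoRNA's strand, TCTT occurred at 22 of 22 members, GTAA at 16 and GTAG at 14. As shares these were 100%, 72.7% and 63.6%. The other 54 snoRNA genes of RefSeq held TCTT in 88.9%, GTAA in 46.3% and GTAG in 38.9% of such windows, and the 6002 protein-coding genes in 66.5%, 54.7% and 29.0%. On the opposite strand of the members' windows the shares were 45.5%, 59.1% and 13.6%. Matches may overlap one another and are letters only, not binding sites.

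The deposited rows only partly follow the RefSeq genes, which bears on how the values read. Only 8 of the 22 mature rows lay within 10 bases of RefSeq at both ends. The mature rows of SNR56, SNR62, SNR63, SNR68 and SNR71 were 311, 225, 447, 436 and 457 bases long and held flanking bases on both sides, 229 of them downstream of the 3′ end for SNR71. The ET rows were drawn by hand on the mapped reads of these same libraries, between 41 and 1443 bases long, so that an ET exists as a row because reads were seen there, and a rise of ETs in *rrp6Δ* is not independent evidence of its direction. For SNR52, SNR56, SNR60 and SNR79 the ET row began inside the RefSeq snoRNA, by 18, 4, 26 and 9 bases. The ET row of SNR52 was shorter than a read, and 18 of its 41 bases belonged to the mature snoRNA, in capitals in the row's sequence, as did the first 26 bases of the SNR60 ET row.
SNR52 ET row (chrV:431106-431146, minus strand): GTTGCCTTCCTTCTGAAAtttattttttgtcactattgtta
SNR60 start of the ET row (chrX:349100-349155, minus strand): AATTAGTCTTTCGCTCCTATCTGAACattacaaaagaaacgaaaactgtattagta

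**Figure D1:**
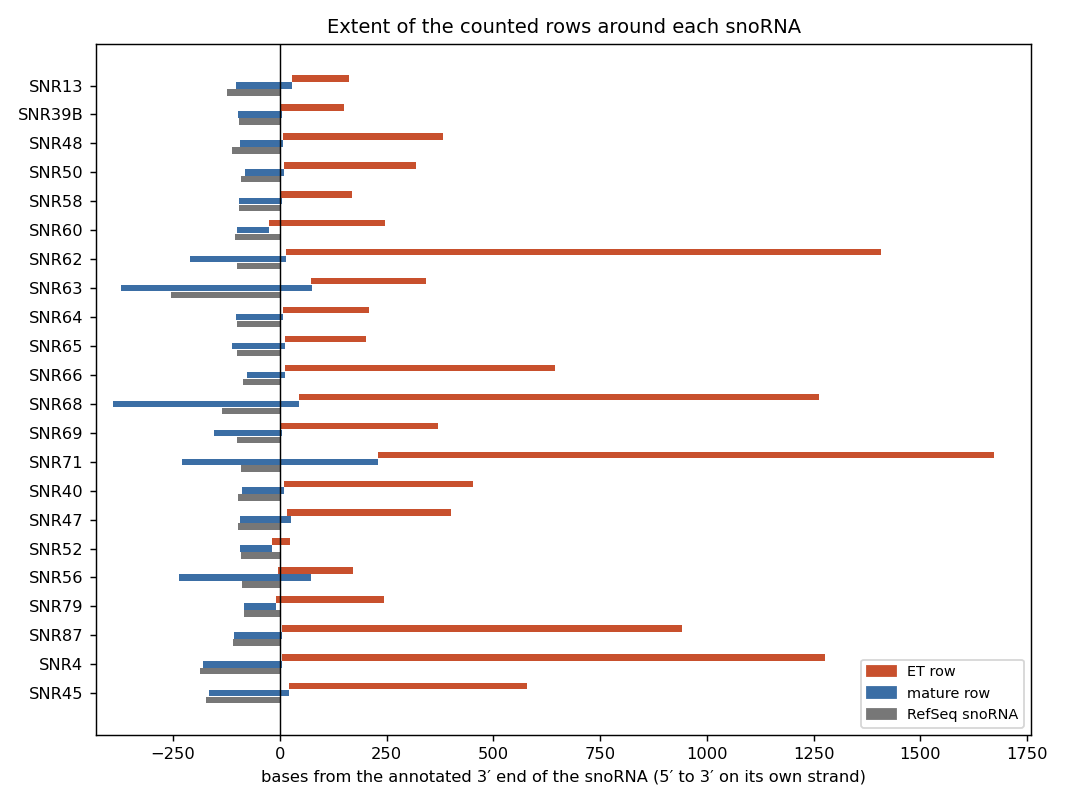
Extent of the ET row (red), the mature row (blue) and the RefSeq snoRNA (grey) of each of the 22 members, in bases from the RefSeq 3′ end on the snoRNA's own strand. The ET rows reach from 41 bases in all for SNR52 to 1443 bases for SNR71, and 4 of them start left of the RefSeq 3′ end.

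Some reads were counted on both rows of a member. For 17 members the table also listed a transcript on the same strand that holds both rows, a NUT for 16 of them and YJL047C-A for SNR60. NUTs are transcripts left unterminated when Nrd1 is depleted. In 7 of the 17, mature plus ET counts exceeded the counts of the holding transcript in all 8 libraries, so where every read on these rows also counted on the holding transcript, the excess was counted on both rows. On that basis at least 97.3% to 99.7% of the ET counts of SNR4 in WT were also mature counts, and 83.4% to 89.9% in *rrp6Δ*. For SNR56 these values were 99.2% to 99.9% in WT and 88.4% to 94.9% in *rrp6Δ*, and for SNR47 80.4% to 93.2% and 46.7% to 61.0%. In the other 4 of the 7 the values in WT were 63.2% to 79.8% (SNR48), 58.3% to 77.3% (SNR63), 50% to 82.8% (SNR65) and 64.7% to 69.7% (SNR87), and in *rrp6Δ* they were 27.6% to 50.7%, 67.9% to 76.0%, 49.7% to 56.3% and 23.2% to 38.7%. On that basis at least 50% of the ET counts in every WT library of all 7 were counted on the mature row as well.

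In WT, the mature RNAs spanned a wide range of levels. Per base of the row, SNR52 was highest at 114 normalized counts, followed by SNR66 at 30.6, SNR48 at 23.4 and SNR40 at 23.2, and SNR79 was lowest at 0.106. SNR66, SNR48 and SNR40 did not differ beyond their spread, with 2693 ± 977, 2364 ± 1136 and 2277 ± 790.1 normalized counts per row (SD, n = 4). SNR79, with 42 to 90 counts on its mature row over the 8 libraries, had the fewest counts of all members.

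The level of the mature RNA was compared between the strains first. Of the 22 mature rows 7 were lower in *rrp6Δ* and 0 were higher, while 15 were not called. Lower calls made up 31.8% of the members, against 9.61% of all transcripts and 22.4% (13 of 58) of the other mature sn/snoRNAs. The median log2 fold change was -0.58 over the members and -0.38 over the other sn/snoRNAs. All 4 *rrp6Δ* libraries lay below all 4 WT libraries for 4 members (SNR56, SNR64, SNR65 and SNR66), where 9.05% of all transcripts did so. These 4 were also the ones whose call held in every one of 17 alternative settings. Less RNA per cell and fewer cells with the RNA cannot be told apart in bulk RNA.

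SNR56, a guide for 18S rRNA methylation whose sequence is given with the printed sequences, had 2029.9, 6415, 3322 and 3178 normalized counts across WT replicates 1 to 4 and 1161, 1737, 1071 and 1006 in *rrp6Δ*, with a log2 fold change of -1.59 ± 0.36 (SE) at FDR = 0.006 by edgeR's quasi-likelihood test. The highest *rrp6Δ* library was below the lowest WT library, and the mean was 3.0-fold lower. SNR65, which guides 25S rRNA methylation, had 753, 1276, 924 and 685 normalized counts across WT replicates 1 to 4 and 251, 419, 382 and 241 in *rrp6Δ*, with a log2 fold change of -1.49 ± 0.28 (SE) at FDR = 0.00202 by edgeR's quasi-likelihood test. The groups were again apart. SNR64, another 25S guide, had 1517, 2701, 1997 and 1244 normalized counts across WT replicates 1 to 4 and 545, 929, 769.7 and 529.9 in *rrp6Δ*, with a log2 fold change of -1.43 ± 0.30 (SE) at FDR = 0.00425 by edgeR's quasi-likelihood test. The highest *rrp6Δ* library and the lowest WT library of SNR64 were 929 and 1244. SNR66, a 25S guide, had 1946, 2753, 4052 and 2020.4 normalized counts across WT replicates 1 to 4 and 886, 1070.1, 1588 and 997 in *rrp6Δ*, with a log2 fold change of -1.25 ± 0.31 (SE) at FDR = 0.00974 by edgeR's quasi-likelihood test. The lowest WT library of SNR66 stood at 1946 and the highest *rrp6Δ* library at 1588. Relative to the median of all transcripts, these 4 members fell by 1.11 to 1.45 on the log2 scale, and the values lay between -1.45 and -1.07 over the 6 scalings tried.

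The other 3 calls were closer to the threshold. SNR71, a 25S guide with a long mature row, had 1185, 2553, 2693 and 1197 normalized counts across WT replicates 1 to 4 and 719.5, 1316, 1359.9 and 912 in *rrp6Δ*, with a log2 fold change of -0.82 ± 0.34 (SE) at FDR = 0.0904 by edgeR's quasi-likelihood test. WT replicates 1 and 4 stood near the *rrp6Δ* libraries, and the groups overlapped. SNR87, an 18S guide, had 456, 846, 963 and 639 normalized counts across WT replicates 1 to 4 and 314, 594, 460.0 and 387 in *rrp6Δ*, with a log2 fold change of -0.73 ± 0.28 (SE) at FDR = 0.0709 by edgeR's quasi-likelihood test. Here too the groups overlapped. SNR50, a 25S guide, had 315, 752, 615 and 408 normalized counts across WT replicates 1 to 4 and 261, 359, 399 and 279 in *rrp6Δ*, with a log2 fold change of -0.69 ± 0.28 (SE) at FDR = 0.0881 by edgeR's quasi-likelihood test. These 3 calls were lost under 13, 12 and 12 of the 17 alternatives, among them library totals alone and an FDR of 0.05, and the 4 other mature rows alone were called without WT replicate 2, WT replicate 3, *rrp6Δ* replicate 1 or *rrp6Δ* replicate 4. The log2 fold changes of SNR71, SNR87 and SNR50 over all alternatives reached up to -0.38, -0.32 and -0.22. The 4 WT libraries differed among themselves, with replicates 2 and 3 above replicates 1 and 4 for each of these 3 members.

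The remaining 15 mature rows had log2 fold changes between -0.93 (SNR39B) and 0.23 (SNR13), and 4 of them (SNR13, SNR58, SNR62 and SNR68) had positive values. SNR39B varied widely between WT libraries, with 25.5, 97.2, 114 and 219.5 normalized counts, and its FDR was 0.171. It was called lower without WT replicate 1 and without *rrp6Δ* replicate 3, when its log2 fold change reached -1.31, but without WT replicate 4, the highest WT library, the value was -0.33 (FDR = 0.63, edgeR quasi-likelihood test). Blocked by replicate number, SNR40 was called lower as well (log2 fold change -0.62, FDR = 0.0189, edgeR quasi-likelihood test), against -0.65 (FDR = 0.125) without it, and the other 21 mature calls stayed as they were. SNR45, whose ET rose most, had a mature log2 fold change of -0.15 (standard error 0.36), and SNR13 of 0.23 (standard error 0.30).

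**Figure D2:**
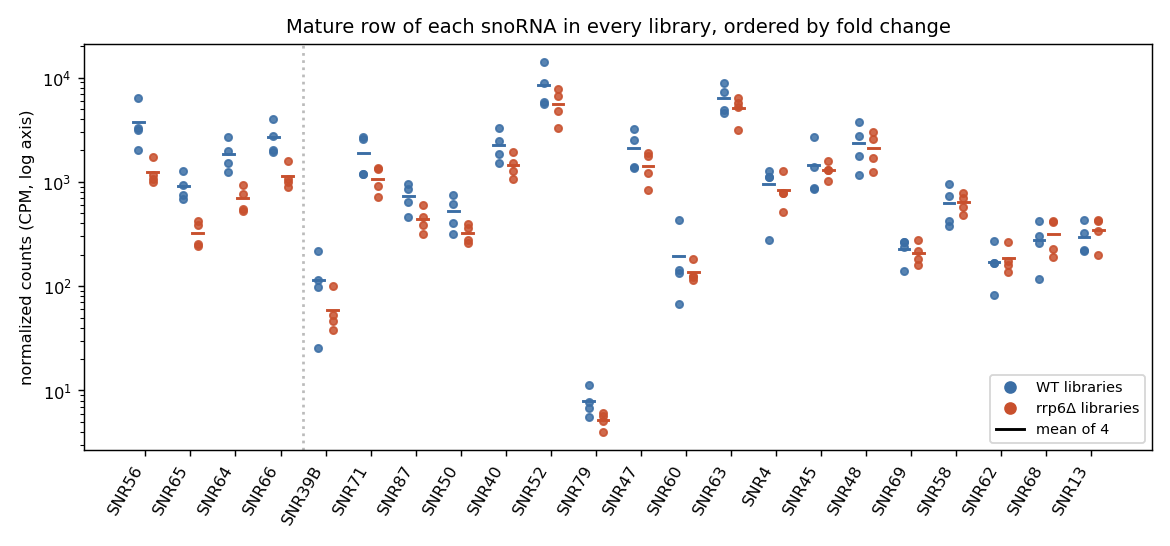
Normalized counts (CPM, log axis) of the mature row of each member in the 4 WT (blue) and 4 *rrp6Δ* (red) libraries, ordered by fold change from lowest to highest, with bars at the means. For the 4 members left of the dotted line (SNR56, SNR65, SNR64 and SNR66) no *rrp6Δ* library reached a WT library.

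The ET rows, which report RNA continuing past the mature 3′ end, were compared in the same fit. Of the 22 ET rows 12 were higher in *rrp6Δ*, 0 were lower and 10 were not called. Higher calls made up 54.5% of the members against 25.6% of all transcripts and 66.1% (37 of 56) of the other ETs, so the members' share did not exceed that of other sn/snoRNAs. The 12 were SNR45, SNR62, SNR13, SNR63, SNR71, SNR65, SNR60, SNR69, SNR48, SNR68, SNR58 and SNR66, in order of their change. In each of them the *rrp6Δ* values all exceeded the WT values, as they did for 21.9% of all transcripts. The median log2 fold change was 1.19 over the members and 1.37 over the other ETs. All 12 calls held in each of 16 alternative settings applied to the ET counts themselves.

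SNR45, the acetylation guide, had 3.81, 11.6, 13.3 and 3.0 normalized counts on its ET across WT replicates 1 to 4 and 104, 159, 187 and 125 in *rrp6Δ*, with a log2 fold change of 4.19 ± 0.45 (SE) at FDR = 9.11e-05 by edgeR's quasi-likelihood test. The mean was 18.3-fold higher in *rrp6Δ*, while the mature row was not called. SNR62, a 25S guide, had 4.57, 7.04, 9.18 and 8.14 normalized counts on its ET across WT replicates 1 to 4 and 35.5, 60.7, 76.9 and 71.9 in *rrp6Δ*, with a log2 fold change of 3.09 ± 0.30 (SE) at FDR = 4.46e-05 by edgeR's quasi-likelihood test. Each *rrp6Δ* library was well over the highest WT library. SNR13, a 25S guide followed closely by *TRS31* on the same strand, had 5.67, 18.4, 12.4 and 4.85 normalized counts on its ET across WT replicates 1 to 4 and 47.2, 109.7, 93.0 and 72.3 in *rrp6Δ*, with a log2 fold change of 2.97 ± 0.41 (SE) at FDR = 4.36e-04 by edgeR's quasi-likelihood test. WT replicates 2 and 3 were the higher ones of their group and still lay below every *rrp6Δ* library. SNR63, the longest RefSeq RNA of the set and a 25S guide, had 6.35, 7.79, 10.8 and 3.43 normalized counts on its ET across WT replicates 1 to 4 and 50.5, 38.2, 77.5 and 45.3 in *rrp6Δ*, with a log2 fold change of 2.90 ± 0.34 (SE) at FDR = 1.34e-04 by edgeR's quasi-likelihood test. Its ET was 7.47-fold higher. SNR71 had 4.31, 4.4, 4.0 and 4.28 normalized counts on its ET across WT replicates 1 to 4 and 18.7, 34.3, 35.8 and 29.2 in *rrp6Δ*, with a log2 fold change of 2.79 ± 0.26 (SE) at FDR = 3.30e-05 by edgeR's quasi-likelihood test. The 4 WT values were nearly equal, and the *rrp6Δ* values were all several times as high.

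The 7 other called ETs had log2 fold changes of 2.54 (SNR65), 2.53 (SNR60), 1.74 (SNR69), 1.43 (SNR48), 1.38 (SNR68), 1.37 (SNR58) and 1.00 (SNR66). SNR65 and SNR66 thus had a lower mature row and a higher ET at the same time, as SNR71 did. For SNR65 the ET rose from 4.2 ± 3.19 to 24.5 ± 13.1 normalized counts (SD, n = 4) while the mature row fell from 909.5 ± 264 to 324 ± 90.6. For SNR66 the ET rose from 18.7 ± 6.95 to 37.3 ± 7.32 while the mature row fell from 2693 ± 977 to 1135 ± 311. In both, the gain on the ET row was a small number of counts beside the loss on the mature row. The ET of SNR68 holds the whole of *FLX1*, the gene of a mitochondrial carrier on the same strand. The *FLX1* row took 254, 205, 192 and 132 counts across WT and 593, 541, 659 and 509 across *rrp6Δ*. The ET row took 324, 256, 243 and 173 and 931, 878, 1162 and 810, so most of its counts can lie on the *FLX1* row. Reads of the *FLX1* mRNA and reads of an extended SNR68 cannot be told apart there.

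The 5 smallest ET changes were not called. SNR52, the polymerase III transcript, had 3170.1, 9169, 5549 and 3838 normalized counts on the ET row in WT and 2344, 5297, 4253 and 2965 in *rrp6Δ* (log2 fold change -0.55, standard error 0.39, FDR = 0.295, edgeR quasi-likelihood test). Its ET and mature rows moved alike, and the libraries of the strains overlapped. SNR56 had 254, 633, 518 and 407 normalized counts on the ET row in WT and 318, 556, 399.8 and 381 in *rrp6Δ* (log2 fold change -0.13, standard error 0.29, FDR = 0.739, edgeR quasi-likelihood test). Its ET row shares 78 bases with its mature row. SNR4, the other acetylation guide, had 124, 374, 404 and 412 normalized counts on the ET row in WT and 220.2, 300.2, 487 and 352 in *rrp6Δ* (log2 fold change 0.05, standard error 0.35, FDR = 0.923, edgeR quasi-likelihood test). WT replicate 1 was far below the other 3 on both rows of SNR4. SNR40 had 18.2, 44.4, 46.6 and 17.0 normalized counts on the ET row in WT and 18.9, 46.4, 47.9 and 31.6 in *rrp6Δ* (log2 fold change 0.20, standard error 0.38, FDR = 0.695, edgeR quasi-likelihood test). The ranges of the strains overlapped, and *rrp6Δ* was above WT in all 4 same-numbered pairs. SNR87 had 175, 225, 186 and 86.8 normalized counts on the ET row in WT and 124, 268, 198 and 283 in *rrp6Δ* (log2 fold change 0.38, standard error 0.31, FDR = 0.373, edgeR quasi-likelihood test). The ET of SNR87 holds *SFT1*, which encodes a Golgi SNARE, so its reads can include those of that gene.

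The last 5 uncalled ETs had log2 fold changes of 0.54 to 0.86, and 4 of these passed the thresholds when the replicate number entered the edgeR fit as a block, which brought the ETs called higher from 12 to 16. The change of SNR79 was 0.86 without and 0.87 with the block (FDR = 0.147 and 0.0341). That of SNR39B was 0.76 without and 0.90 with the block (FDR = 0.264 and 0.0186). For SNR47 it was 0.75 without and 0.76 with the block (FDR = 0.109 and 5.01e-04). For SNR50 it was 0.66 without and 0.69 with the block (FDR = 0.147 and 0.00238). SNR64 stayed under the fold threshold, at 0.54 without and 0.53 with the block. SNR79 had the fewest counts of any member, with 10 to 36 on the ET in WT and 44 to 65 in *rrp6Δ*.

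**Figure D3:**
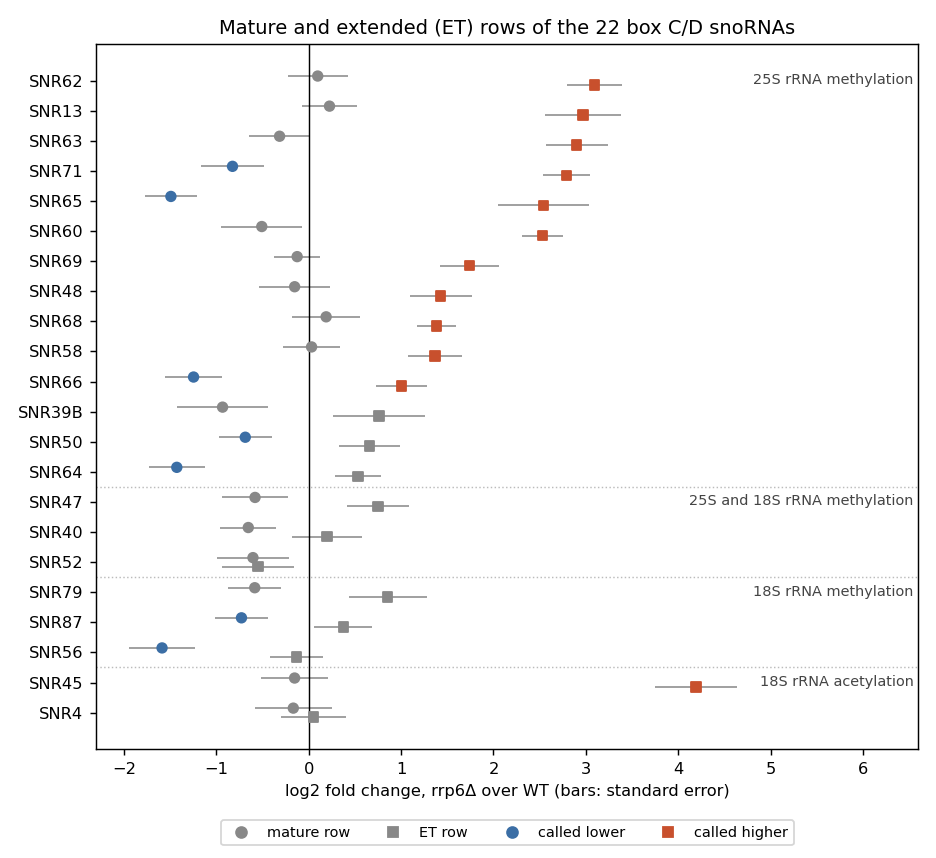
Log2 fold changes (*rrp6Δ* over WT, with standard errors) of the mature (circles) and ET (squares) rows of the 22 members, grouped by guide target, with called rows in colour. Of the ET rows 12 lie to the right and are called, from 1.00 for SNR66 to 4.19 for SNR45, while the 7 called mature rows lie to the left.

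Because ET rows can hold reads that were also counted on the mature row, counts that lie outside the mature row were also taken, as the counts of the NUT that holds both rows less those of the mature row. This measure was chosen after the data were seen. It does not cover the same stretch as the ET row, since a NUT can reach beyond it. NUT0206 has 5220 bases against 1271 of the ET row of SNR4, and NUT0013 has 1100 against 175 of that of SNR56. The measure is free of other ORF-T, sn/snoRNA or ET rows on the strand for 6 members. It was called higher for 5 of these (SNR4, SNR45, SNR56, SNR63 and SNR65) and lower for 0. Among all transcripts 25.6% were called higher in the main fit. NUT0206, which holds SNR4, left 39, 26, 26 and 9 counts across WT and 599, 381, 654 and 432 in *rrp6Δ* (log2 fold change 3.82, standard error 0.30, FDR = 2.41e-05, edgeR quasi-likelihood test). This was 14.1-fold higher, although the ET row of SNR4 had a log2 fold change of 0.05. NUT0013, which holds SNR56, left 25, 20, 13 and 2 counts across WT and 478, 273, 612 and 286 in *rrp6Δ* (log2 fold change 4.22, standard error 0.42, FDR = 5.26e-05, edgeR quasi-likelihood test). Every *rrp6Δ* library exceeded every WT library by far, and the mean was 18.7-fold higher, against a log2 fold change of -0.13 on the ET row. For SNR45, SNR63 and SNR65 the log2 fold changes were 4.09, 2.84 and 3.17, where those of their ET rows were 4.19, 2.90 and 2.54. For SNR66 it was -0.01 and not called, against 1.00 on the ET row. NUT0661, which holds SNR66, also covers all of *NME1*, the RNA of RNase MRP, and the mature SNR66 row was only 11.0% to 31.3% of its counts.

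Rows of other classes on the same strand that touch the ET but not the mature RNA gave a further view of the downstream stretch. Cryptic unstable transcripts (CUTs) are short transcripts first described in cells lacking *RRP6*, so that their rise is built into their definition. Of the 9 CUTs that share bases with an ET and none with the mature row, 9 were higher in *rrp6Δ*, against 595 of 732 CUTs in the table (81.3%). Each had a larger log2 fold change than the ET it touches. Their median was 3.02, against 2.04 over all CUTs. CUT117, which starts 350 bases past the 3′ end of SNR4, had 2, 3, 4 and 0 counts across WT and 167, 108, 181 and 118 in *rrp6Δ* (log2 fold change 5.35, standard error 0.48, FDR = 2.98e-05, edgeR quasi-likelihood test). Its lowest *rrp6Δ* library was far above its highest WT library, and the fold change rests on few WT counts. CUT226, which starts 50 bases past SNR64 and fills most of its ET, had 51, 60, 23 and 17 counts across WT and 322, 330, 363 and 230 in *rrp6Δ* (log2 fold change 2.53, standard error 0.34, FDR = 3.35e-04, edgeR quasi-likelihood test). The ET of SNR64 had a log2 fold change of 0.54. CUT314, on the ET of SNR40, had 21, 43, 27 and 11 counts across WT and 108, 111, 141 and 57 in *rrp6Δ* (log2 fold change 1.43, standard error 0.42, FDR = 0.0221, edgeR quasi-likelihood test). There too the ET row itself, at 0.20, was not called. The other 6 were CUT841 on SNR62 (5.77), CUT433 on SNR45 (5.07), CUT181 on SNR71 (3.12), CUT689* on SNR60 (3.02), CUT342 on SNR66 (2.56) and CUT150 on SNR48 (2.47). Of the 364 bases of CUT689* only 32 are shared with the ET of SNR60, so it mostly reports RNA further downstream. The 3 antisense rows so placed, AS_YER132C on SNR4 (3.99), AS_YOR042W on SNR62 (4.71) and AS_YDL075W on SNR63 (0, 1, 1 and 0 counts across WT and 14, 20, 37 and 9 in *rrp6Δ*), were higher too, but antisense rows were kept in the table because they changed in these libraries. These rows share reads with the ETs, so the differences between them were not tested.

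**Figure D4:**
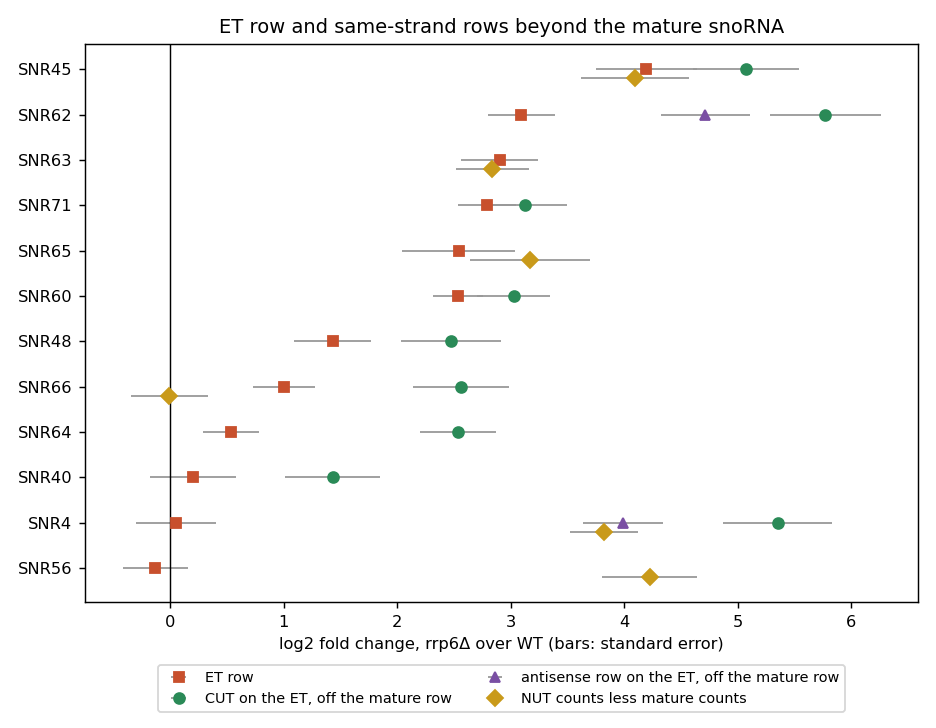
Log2 fold changes (*rrp6Δ* over WT, with standard errors) of the ET row (squares), of CUTs (circles) and antisense rows (triangles) that share bases with the ET and none with the mature row, and of NUT counts less mature counts (diamonds). SNR4 and SNR56 have ET rows near 0 and NUT counts less mature counts at 3.82 and 4.22, and SNR66, whose NUT also covers *NME1*, has its diamond at -0.01.

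The extended share, the ET counts as a percentage of ET plus mature counts, was compared within each library, which leaves the scaling of libraries out. The median over the members was 4.32% in WT and 14.3% in *rrp6Δ*, and over the other 54 sn/snoRNAs with both rows 1.63% and 6.92%. The *rrp6Δ* shares all exceeded the WT shares for 18 of the 22 members and below them for 0, where 72.4% of all 76 sn/snoRNAs lay above and 1.32% below. The smallest two-sided p of an exact permutation test with 4 against 4 libraries is 0.0286, and the 18 members reached it (0.0388 after Benjamini-Hochberg adjustment over the 76). The exceptions were SNR4, SNR40, SNR52 and SNR68. In edgeR's quasi-likelihood test of the interaction between strain and row, 20 members passed an FDR of 0.1 upward, against 76.3% of the 76, and SNR4 and SNR52 did not.

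SNR60, the highest in *rrp6Δ*, had shares of 27.0, 17.99, 18.7 and 7.63% across WT replicates 1 to 4 and 60.4, 51.4, 55.9 and 58.5% in *rrp6Δ*. The larger part of its counts were on the ET in every *rrp6Δ* library, and in no WT library. Its ET row includes RefSeq bases. SNR79, at low counts, had shares of 22.4, 28.6, 29.7 and 17.2% across WT replicates 1 to 4 and 34.4, 53.4, 40.7 and 60.7% in *rrp6Δ*. The groups did not overlap, but the *rrp6Δ* libraries spread widely. SNR52 had shares of 36.1, 39.6, 38.6 and 39.8% across WT replicates 1 to 4 and 41.5, 40.3, 39.1 and 38.5% in *rrp6Δ*. The means of 38.6% and 39.9% differed by less than the spread between libraries (exact permutation p = 0.343, n = 4). SNR87 had shares of 27.8, 21.0, 16.2 and 11.9% across WT replicates 1 to 4 and 28.4, 31.0, 30.1 and 42.3% in *rrp6Δ*. The lowest *rrp6Δ* value was just over the highest WT value. SNR4 had shares of 30.8, 25.2, 26.4 and 24.5% across WT replicates 1 to 4 and 29.9, 27.7, 27.6 and 30.8% in *rrp6Δ*. The groups of SNR4 overlapped (exact permutation p = 0.171, n = 4). On the basis given for reads counted on both rows, at least 97.3% of its ET counts in each WT library were also mature counts. In *rrp6Δ* this was at least 83.4%. The share of SNR4 is therefore mostly one of such reads and not of RNA past the mature row.

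The largest relative changes of the share were those of SNR45, from 0.542% ± 0.274 to 9.97% ± 2.23 (SD, n = 4), and SNR65, from 0.419% ± 0.19 to 6.76% ± 1.88. These are ratios of 18.4 and 16.2 between the means. SNR71 followed with 0.26% ± 0.116 and 2.68% ± 0.279, and SNR63 with 0.109% ± 0.03 and 1.07% ± 0.399, the lowest mean share of any member in both strains. The mature rows of SNR71 and SNR63 reach 229 and 76 bases past the RefSeq 3′ end, so shorter extensions count as mature there. The order of shares between members thus depends on how the rows were drawn. SNR64 had a share of 1.51% ± 0.354 in WT and 5.46% ± 0.618 in *rrp6Δ* although its ET row was not called, as its mature row was lower. SNR68 had 11.5% ± 5.58 and 20.9% ± 3.92, with WT replicate 1 at 19.1%, inside the range of *rrp6Δ*. Its ET row holds *FLX1*, whose mRNA cannot be told apart from the extension. SNR40 had 1.32% ± 0.382 and 2.38% ± 0.486, and overlapped through WT replicate 3. Compared within same-numbered pairs, the shares of SNR40 and SNR68 were higher in *rrp6Δ* in all 4 pairs, as they were for 20 of the 22 members, and the smallest p that 4 pairs allow in an exact sign-flip permutation test is 0.125.

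**Figure D5:**
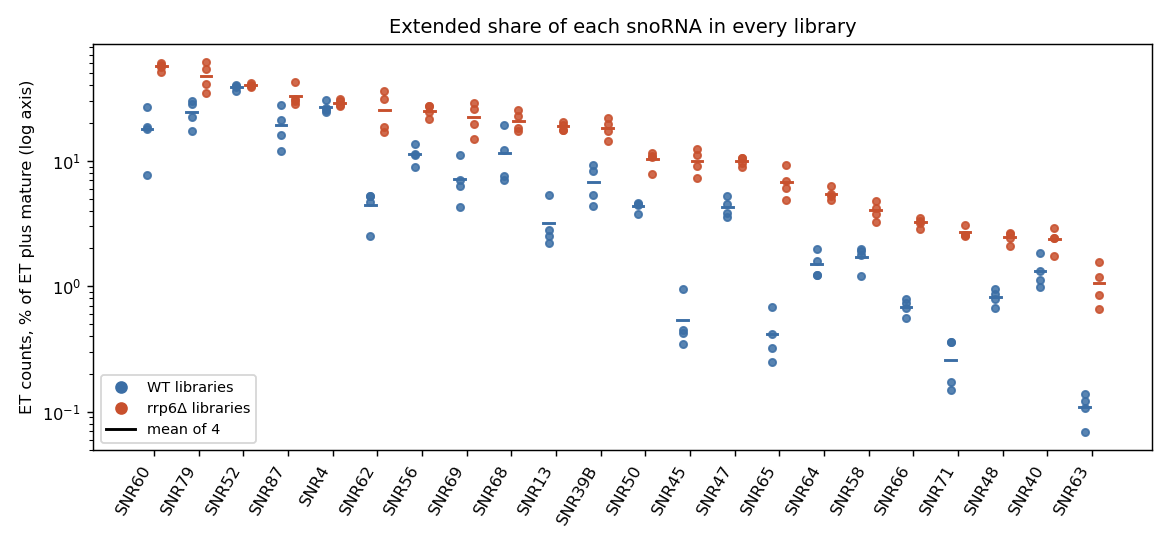
ET counts as a percentage of ET plus mature counts (log axis) in every library, ordered by the mean in *rrp6Δ*, with WT in blue, *rrp6Δ* in red and bars at the means. The groups are apart for 18 of the 22 members, and for SNR52 and SNR4 the points of the strains lie on each other. Reads counted on both rows are included, which are most of the ET counts of SNR4.

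Ordered by guide target, 11 of 14 ETs of 25S methylation guides were higher (median log2 fold change 1.58), with 0 of 3 among guides of both rRNAs (median 0.20), 0 of 3 among 18S methylation guides (median 0.38) and 1 of 2 among acetylation guides (median 2.12). With the replicate block the ETs of SNR47 and SNR79 were called too, so that 1 of 3 was higher in each of the groups with 0, besides SNR39B and SNR50 among the 25S guides. By NUT counts less mature counts the 18S guide SNR56 (4.22) and the acetylation guide SNR4 (3.82) rose as well. So did SNR47 (2.40) and SNR87 (1.43), whose NUTs also hold other rows on the strand. SNR39B (0.91), SNR64 (-0.29) and SNR79 (0.04), whose NUTs hold other rows too, were not called. Lower mature rows numbered 5 of 14 (median -0.41), 0 of 3 (median -0.60), 2 of 3 (median -0.73) and 0 of 2 (median -0.16) in the same order. With 3 or fewer members in 3 of the 4 groups, no difference between targets was tested.

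Transcripts that overlap a member or its ET, and the next ORF transcript (ORF-T) downstream of each, were followed as neighbours, 83 in all. Of these 25 were higher and 17 lower, where 25.6% and 9.61% of all transcripts were. On the same strand, 20 NUTs overlapped members, 4 were lower and 0 higher. All 4 (NUT0013 with SNR56, NUT0082 with SNR65, NUT0435 with SNR64 and NUT0349 with SNR71) hold a mature row that was lower and that supplied most of their counts, so their values restate the mature RNA. Of 17 ORF-Ts on the opposite strand 8 were lower and 1 higher, where 14.3% of all 5753 ORF-Ts were lower and 2.09% higher. *LIN1* (YHR156C), opposite the ET of SNR71, had 53, 62, 41 and 62 counts across WT and 20, 20, 14 and 23 in *rrp6Δ* (log2 fold change -2.06, standard error 0.35, FDR = 0.00129, edgeR quasi-likelihood test). All its *rrp6Δ* libraries were below all WT libraries. *CUE5*, an adaptor gene of ubiquitin-dependent autophagy opposite the ET of SNR62, had a log2 fold change of -1.28. The ribosomal protein genes *RPS14A* opposite SNR65 (-1.10), *RPL16A* opposite SNR68 (-0.93), *RPS8A* opposite SNR56 (-0.88) and *RPL31A* opposite SNR63 (-0.80) were lower as well, as were *PMD1* opposite SNR4 (-0.72) and *GLO4* downstream of SNR62 (-0.60). The study reports that most ribosomal protein transcripts were lower in *rrp6Δ*, and the comparison with all ORF-Ts does not set this class apart. YOL097W-A, opposite SNR58, was higher (1.34). Other opposite-strand rows were CUT800 and NUT1333 at SNR40 (2.92 and 1.77), CUT702 at SNR64 (2.15) and NUT0402 at SNR60 (1.57), all higher, and AS_YOR041C at SNR62 (-1.38) and NUT0103 at SNR63 (-0.92), both lower. Scaled by library totals 7 of the 83 neighbours were lower, with TMM on ORF-Ts 9, and with at least 10 counts in every library 9 were lower and 11 higher of 69 left. Whether these changes are linked to the snoRNA extensions was not tested.

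Of the 22 ORF-Ts next downstream, on either strand, 5 were lower (22.7%) and 1 was higher, where 14.3% and 2.09% of all ORF-Ts were. *UBX6*, 4 bases past the ET of SNR60, was the one that rose. It had 239, 186, 189 and 104 counts across WT and 2246, 960, 2754 and 1507 in *rrp6Δ* (log2 fold change 2.77, standard error 0.27, FDR = 4.78e-05, edgeR quasi-likelihood test). CUT689*, which overlaps its start, had nearly the same counts, 203, 174, 172 and 64 in WT and 2344, 973, 2798 and 1502 in *rrp6Δ*. *ASN1*, asparagine synthetase, begins 96 bases past the ET of SNR45 and had 8262, 3962, 5388 and 3177 counts across WT and 6684, 2087, 4691 and 3476 in *rrp6Δ* (log2 fold change -0.90, standard error 0.26, FDR = 0.0219, edgeR quasi-likelihood test). Its normalized counts did not overlap between the strains. *ERG25*, a sterol synthesis gene downstream of SNR48 (-0.62), *PMD1* downstream of SNR52 on the same strand, *RXT3* downstream of SNR63 (-0.66) and *GLO4* were also lower. Among same-strand ORF-Ts that overlap an ET, YDR042C on SNR47 (2.51), *FLX1* on SNR68 (1.01), *REC104* on SNR71 (1.09) and *SFT1* on SNR87 (0.70) were higher, as was YOR041C on SNR62, with 1, 1, 2 and 3 counts across WT and 23, 17, 36 and 18 across *rrp6Δ*. Reads on these rows can come from the gene or from the snoRNA extension, as the study states for *REC104*. CUT180 (4.25) and the antisense row AS_YHR156C (3.61), which touch both rows of SNR71 on its strand, were higher too. *TRS31*, a TRAPP subunit gene 48 bases past the ET of SNR13 and named here after its value was seen, was not called (-0.24).

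Genes of proteins that build and process these snoRNAs were compared as a group of 29 textbook genes. Of these 3 were lower and 1 was higher, or 10.3% and 3.45%, against 14.3% and 2.09% of all ORF-Ts. *NOP1*, the methyltransferase of the particle, had 47.8 ± 9.23 normalized counts across WT and 27.3 ± 3.45 in *rrp6Δ* (SD, n = 4), a log2 fold change of -0.81 (FDR = 0.00901, edgeR quasi-likelihood test). *SNU13*, which binds the box C/D motif, was lower too (-0.65), while *NOP56* and *NOP58* had log2 fold changes of -0.40 and -0.32 and were not called. *LHP1*, the yeast La protein that binds the 3′ ends of new polymerase III transcripts, was lower (-0.69). *NRD1*, whose product ends snoRNA transcription, was higher (0.70). None of the 7 assembly genes and none of the 7 exosome and TRAMP genes was called in this fit. With TMM on ORF-Ts, scaled by library totals, or with at least 10 counts in every library, 0 of the 29 were lower and 2 were higher.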

How the data were processed

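Strand-specific RNA-Seq of rRNA-depleted total RNA was done on 4 WT and 4 *rrp6Δ* preparations. Per the methods of the study, 75-base SOLiD reads were mapped to sacCer3 with bfast and counted per annotated transcript with NGSUtils. Of the mapping pipelines described there, the one behind the table is not given in the sources used here. The deposited table holds the raw read counts of each transcript and library, which were analysed here. It also holds a signal column per library, the counts that the authors divided by an edgeR library size, which was not used. The authors' log2 fold changes and p-values for the same comparison stand in the deposited table too and were not used. ETs were annotated by hand by the authors on these reads. All 8 columns of counts were used and 0 columns of per-sample values were left out.

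All 10054 transcripts were fitted with edgeR 4.0.16 (R 4.3.3; TMM, quasi-likelihood F test, strain as the only factor), with no filter on low counts, and called at a fold change of at least 1.5, p under 0.05 and FDR of 0.1 or less. A count of 3 was taken as the floor, which is 0.183 to 0.444 normalized counts per library. The floor covers counting error only, while the standard errors and SDs include the spread between libraries. For extended shares 0.5 counts were added to the ET, and 76 sn/snoRNAs with both rows were tested by a two-sided exact permutation test (Python 3.11.15) and by edgeR's strain by row interaction. The script was tested on simulated data. Sequences were read from RefSeq (R64), which matched 22 of 22 members. Values in every library are printed for each called mature row, the 5 largest and 5 smallest ET changes and the 5 highest shares in *rrp6Δ*, and neighbours are named where called. Replicates with the same number deviated together (correlations of 0.409 to 0.573 over transcripts for same-numbered pairs, and -0.389 to 0.01 for others). Deviations were taken from the mean of each strain, which by itself lowers the correlations of the other pairs. The number was therefore used as a block in an alternative, on the evidence of the data and not of the labels. The main calls and the permutation test of shares do not use this pairing. Alternatives were other scalings, filters, DESeq2 1.42.0, the replicate block and leaving out each library. The 22 members, the gene lists and the tests were chosen with earlier results of these data known.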

Additional observations from a re-analysis of the deposited data

Results flagged for a closer look

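In 5 of 132 groups of 4 libraries tested (3.79%), 1 library stood apart from the other 3 by Dixon's test, which chance alone gives in about 5% of groups. The mature row of SNR4 had 279 normalized counts in WT replicate 1, against 1108 to 1269 in the other WT libraries. The ET of SNR4 had 124 normalized counts in the same library, against 374 to 412. The mature row of SNR60 had 183 normalized counts in *rrp6Δ* replicate 3, against 114 to 124. The ET of SNR69 had 38.1 normalized counts in *rrp6Δ* replicate 1, against 64.4 to 67.4. The extended share of SNR71 was 3.10% in *rrp6Δ* replicate 4, against 2.53% to 2.56%.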

How the results depend on the processing

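The counts are given for 22 mature rows, 22 ETs, 83 neighbours and 29 processing genes. Mature rows called lower were 7, and 4 in each of these settings: an FDR of 0.05, a minimum of 10 counts per library, TMM on ORF-Ts, TMM on mature sn/snoRNAs, scaling by library totals, and scaling with NUTs, ETs and sn/snoRNAs kept out. Leaving out 1 library gave 4 to 8, with 4 without WT replicate 2, WT replicate 3, *rrp6Δ* replicate 1 or *rrp6Δ* replicate 4. Scaling by library totals called 1 mature row higher (SNR13), against 0. ETs called higher were 12, 12 to 16 when 1 library was left out, 18 when scaled by library totals, 16 with TMM on ORF-Ts, 15 with NUTs, ETs and sn/snoRNAs kept out, and 13 with DESeq2. Neighbours called higher were 25, and 11 of the 69 left with a minimum of 10 counts per library, where 9 were lower against 17. Neighbours called lower were 9 with TMM on ORF-Ts and 7 when scaled by library totals. Processing genes called higher were 1, and 2 under the minimum of 10 counts, TMM on ORF-Ts, scaling by library totals, and scaling with NUTs, ETs and sn/snoRNAs kept out. Those called lower were 3, and 0, 0, 0 and 1 under the same settings. Leaving out 1 library gave 0 to 1 higher and 1 to 3 lower. With the replicate block 8 mature rows and 19 neighbours were lower, 16 ETs and 26 neighbours were higher, 1 processing gene was higher and 3 lower, and 20 members had a higher share in all 4 pairs, so the block changed only the calls of SNR40 (mature), of SNR39B, SNR47, SNR50 and SNR79 (ET), of 3 neighbours and of the shares of SNR40 and SNR68. With NUT counts less mature counts in place of the ET, the change of SNR56 became 4.22 and that of SNR66 -0.0095, and a holding transcript as the denominator of the share lost 2 of 17 shares. Fewer genes were tested under the filter of 10 counts, and the cause of the other changes was not tested. Depth limits SNR79 most, with 42 to 90 mature counts per library.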
